A study of Rattus norvegicus with 18 samples.

Results

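Neonatal rat ventricular cardiomyocytes that carried an adenovirus for sORF6, a short open reading frame, were compared with cells that carried the control virus of that experiment. The comparison rests on the 6 libraries whose titles name sORF6, 3 with ad-sORF6 and 3 with its control virus, out of 18 libraries in the series. The cells came from the cardiac ventricle of Sprague-Dawley rats at postnatal day 2, after a plating step meant to remove other cell types. The cells of all 6 libraries, those with the control virus included, had been given 20 µM phenylephrine for 24 h, which acts on alpha-1 adrenergic receptors and makes these cells hypertrophy. The labels state neither the sequence of sORF6 nor what the control virus carries. Whether replicates were grown as separate cultures is not stated either, so every p-value reflects only the spread among libraries, which may be technical. That spread was estimated over all 18 libraries of the series, with 12 residual degrees of freedom, unless only the 6 are said to be fitted. The other 12 libraries belong to the matching experiments with sORF7 and sORF8, each with a control virus of its own. The table lists 19880 genes, and 14872 had counts high enough to be tested.

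Cells display fragments of their own proteins on MHC class I molecules: the proteasome cuts the proteins, the TAP transporter moves the fragments into the endoplasmic reticulum, and tapasin loads them onto class I heavy chains paired with beta-2 microglobulin. Interferons and other inflammatory signals raise the genes of this pathway, including the subunits that turn the standard proteasome into the immunoproteasome, and they also raise complement genes, whose products mark microbes and damaged cells. The extracellular matrix of the heart, made of collagens, basement membrane and elastic fibres, is laid down mostly by fibroblasts, while the fetal cardiac genes Nppa, Nppb and Myh7 are the classical readout of the hypertrophic growth that phenylephrine induces.

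The 6 libraries held 17436673 to 17658168 counts each. By edgeR's quasi-likelihood test, adjusted after Benjamini and Hochberg, 574 genes (3.86% of those tested) were called at an adjusted p under 0.05, of which 145 were higher (0.975%) and 429 lower (2.88%) with sORF6. With only the 6 libraries fitted, 60 genes were higher and 258 lower. The 145 rises were small: 4 reached 2-fold and 136 stayed under 1.5-fold, with a median log2 fold change of 0.25. The falls were larger, with 132 of 429 at 2-fold or more and a median of -0.54. The falls in interferon and chemokine genes, in 4 lists of genes, made up 80 of the 429, which left 349 falls and all 145 rises outside those lists. The lists are not complete, so the 349 still hold interferon-induced genes such as Irgm2, and they hold class I genes such as Tapbp. The 12 cardiomyocyte markers, among them Actc1, Tnnt2 and Myh7, summed to 64850 to 69630 CPM, counts scaled to a common library total, in the control libraries and to 68060 to 71440 with sORF6, so the labelled cell type was present throughout. Control replicate 2 stood apart: its counts differed from those of the other controls by a chi-square per degree of freedom of 11.2 and 11.4, against 2.74 to 3.83 for the other pairs of replicates. Its departure from the other controls went with transcript length (Spearman rho of -0.60 across 10117 genes, which are not independent replicates). Measured in the same way against the rest of their own group, the other libraries had a rho of 0.309 and 0.499 (control replicates 1 and 3) and of 0.309, -0.24 and -0.0854 (sORF6 replicates 1 to 3). Across the same genes the difference between sORF6 and control had a rho with length of 0.28 with all 6 libraries and of -0.02 without this library. Without control replicate 2 the test called 129 genes higher and 400 lower, of which 87 and 339 were among the calls made with it. Genes called higher with all 6 libraries had a median effective transcript length of 3883 bases and those called lower of 2204, against 2455 over all genes. A fit corrected for transcript length kept 121 of the 145 rises and 417 of the 429 falls.

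Genes of MHC class I presentation were lower with sORF6, from the peptide transporter to the heavy chains. Of 35 tested genes of the pathway, 19 fell and 0 rose, and the median log2 fold change over the 35 was -0.69, against 0.00089 over all genes tested. Stretches before the start sites of 5 of these genes, of 2 proteasome genes and of the chemokine gene Cxcl1, all of them lower with sORF6, are shown first because they hold letter patterns of factors that act in interferon and inflammatory signalling. The sequences are from RefSeq (build GRCr8), run 5′ to 3′ on the strand of the gene, and carry in capitals the ISRE-like pattern (GAAA, any 2 bases, GAAA) and the NF-kB-like pattern (GGG, any 2 bases, TT, any base, CC), each also as its reverse complement.
B2m (chr3:129549165-129549217, plus strand): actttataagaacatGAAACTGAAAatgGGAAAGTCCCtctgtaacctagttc
Tap1 (chr20:4668574-4668679, minus strand): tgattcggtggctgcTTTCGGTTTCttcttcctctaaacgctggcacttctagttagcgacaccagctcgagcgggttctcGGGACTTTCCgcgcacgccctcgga
Tapbp (chr20:4967881-4967910, minus strand): tttgaggGAAAATGAAAGTGAAAggaaaca
RT1-A2 (chr20:4872682-4872721, plus strand): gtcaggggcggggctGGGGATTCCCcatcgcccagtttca
RT1-N3 (chr20:2666267-2666306, plus strand): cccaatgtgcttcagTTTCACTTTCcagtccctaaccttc
Psmb10 (chr19:50743293-50743380, minus strand): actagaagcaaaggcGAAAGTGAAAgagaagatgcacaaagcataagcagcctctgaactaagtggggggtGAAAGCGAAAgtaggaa
Psme2 (chr15:33052785-33052814, minus strand): cctggagagtGAAAGCGAAAgctggggctg
Cxcl1 (chr14:17479381-17479438, minus strand): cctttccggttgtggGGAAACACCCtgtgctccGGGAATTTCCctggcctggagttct

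The promoter window ran from 250 bases before each RefSeq start site to 50 after it, and both strands were searched. The capitals of Tapbp are a pair of overlapping ISRE-like matches. Its printed stretch was cut short, and its window also held an NF-kB-like match, at positions -61 to -52 from the start site, that is not shown. Of the 19 class I genes that fell, 17 had such a window: 6 of them (35.3%) held the ISRE-like pattern and 8 (47.1%) the NF-kB-like pattern. Over all 27457 genes of the promoter table the shares were 4.12% and 5.35%. The other patterns searched were a GAS-like one (TTCNNNGAA), found in 0 of the 17 and in 9.39% of all genes, and an AhR-like one (TNGCGTG), found in 1 of the 17 and in 5.45%. Several RT1 genes are near-identical copies whose windows share their letters, so they are not independent. Matches describe the sequence only, and for all called genes together no share is given, because 77.1% of the tested genes had a window, under the minimum of 80% set for such a check.

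Tap1, which encodes a subunit of the peptide transporter (gene 24811, chromosome 20, 3979302 to 3989669, plus strand in the authors' build Rnor_6.0), had 48.9, 37.3 and 41.9 normalised CPM in control replicates 1 to 3 and 18.2, 17.5 and 18.1 with sORF6. The sORF6 libraries were close to each other and far below each control, a level 2.38-fold lower (log2 fold change -1.252 ± 0.10 (SE), edgeR adjusted p = 1.72e-07). Tapbp, the gene of tapasin, had 44.3, 38.4 and 40.3 CPM in the controls and 18.6, 19.8 and 19.3 with sORF6 (-1.09 ± 0.08, edgeR adjusted p = 4.22e-08). B2m, which encodes beta-2 microglobulin, the light chain shared by all class I molecules, fell from 328, 314 and 302 to 220, 232 and 202 CPM (-0.53 ± 0.07, edgeR adjusted p = 7.83e-05). The groups did not overlap for any of these genes. Tap2, the other transporter subunit, fell by less than Tap1 (9.26, 8.23 and 8.20 CPM against 4.89, 5.96 and 4.96, a log2 fold change of -0.70 ± 0.13).

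The class I heavy chains of the rat are encoded by the RT1 genes. Reads of these near-identical copies can be divided among them by the counting, so each single value is uncertain, and their sum is given beside them. Summed over the 20 RT1 genes of the list that were tested, the controls had 427, 373 and 374 CPM and the sORF6 libraries 212, 213 and 195, a sum 1.89-fold lower. Of the 20, 13 fell. RT1-CE5 had 80.5, 75.9 and 73.1 CPM in the controls and 47.0, 47.1 and 45.1 with sORF6 (-0.72 ± 0.06, edgeR adjusted p = 4.55e-07). RT1-T24-3 fell by more (-1.54), and so did RT1-A2 and RT1-S3 (-0.93 and -1.17). Nlrc5, a transactivator of class I genes, stood at 3.97, 1.91 and 4.84 CPM in the controls and 0.931, 1.64 and 0.577 with sORF6 (-1.77 ± 0.37, edgeR adjusted p = 0.00684, and 0.0549 without sORF6 replicate 3). The general chaperones that class I molecules use in the endoplasmic reticulum gave no call: log2 fold changes were 0.01 for Calr, 0.09 for Canx and -0.03 for Pdia3. Of the 19 falls, 15 were called in each of the 6 fits that left out 1 library, and 16 without control replicate 2. The fall of Tapbpl, a tapasin relative, was lost in all 6 of these fits (log2 fold change -0.42, edgeR adjusted p = 0.0485 with all libraries, and up to 0.174 without sORF6 replicate 3). Among 8 tested genes of class II presentation, which is the business of professional immune cells, 0 passed in either direction.

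The immunoproteasome subunits fell, while no subunit of the standard 20S core passed the test. All 5 genes of the inducible set were lower, with a median log2 fold change of -0.66. Psmb8, a catalytic subunit of the immunoproteasome, had 6.90, 5.39 and 5.01 CPM in the controls and 2.15, 2.86 and 3.06 with sORF6 (-1.10 ± 0.16, edgeR adjusted p = 1.73e-04). Psmb9, another catalytic subunit, had 7.30, 6.72 and 7.01 CPM against 4.13, 3.27 and 3.17 (-0.99 ± 0.17, edgeR adjusted p = 0.00126). Psmb9, Tap1, Psmb8 and Tap2 lie side by side on chromosome 20, between 3973424 and 4009587 in Rnor_6.0. Psmb10, the third of the exchanged catalytic subunits, fell by 0.66 on the log2 scale, and the activator subunits Psme2 and Psme1 fell by 0.38 and 0.29. The fall of Psme1 was lost in 1 of the 6 fits, without sORF6 replicate 1 (edgeR adjusted p = 0.0677). Of the 5 promoter windows, 3 held the ISRE-like pattern, 2 of them wholly before the start site. Psmb10 held it at a pair of places, as shown above. The pattern was also in 2 of 13 windows of 20S core genes (15.4%), and in 4.12% over all genes of the promoter table.

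Each inducible subunit replaces a standard one, so their shares were set side by side as FPKM, a level per length of transcript. Psmb8 made up 6.78%, 4.98% and 5.18% of the FPKM of Psmb8 and its counterpart Psmb5 in the controls and 2.38%, 3.16% and 3.34% with sORF6. Psmb9 made up 6.86%, 5.64% and 6.51% of Psmb9 and Psmb6 in the controls and 4.06%, 3.22% and 3.20% with sORF6. For Psmb10 and Psmb7 the shares were 6.70%, 6.23% and 6.15% against 4.8%, 3.81% and 4.32%. In none of the 3 pairs did the groups overlap, and the standard subunit held most of the FPKM in every library. The 14 genes of the 20S core had log2 fold changes between -0.17 (Psmb2) and -0.05 (Psma4), all below 0, with a median of -0.09 and 0 calls. That median was -0.02785 without control replicate 2 and -0.05051 in a fit corrected for transcript length. Of 21 genes of the 19S regulator, the cap that feeds substrates into the core, 1 fell: Psmd12, with 137, 146 and 131 CPM against 120, 120 and 123 (log2 fold change -0.19 ± 0.04, edgeR adjusted p = 0.0129, and 0.0646 without control replicate 2). Its call was also lost without sORF6 replicate 1 (0.0574) or 2 (0.0564). The median over the 21 was -0.07, and 2.88% of all genes tested were called lower. The 10 assembly and other activator genes had 0 calls and a median of -0.04, and of 0.01888 without control replicate 2. ISG15, a ubiquitin-like protein that interferon induces, and the enzymes that attach or remove it fell in 6 of 7 tested genes with a median of -2.28.

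**Figure D1:**
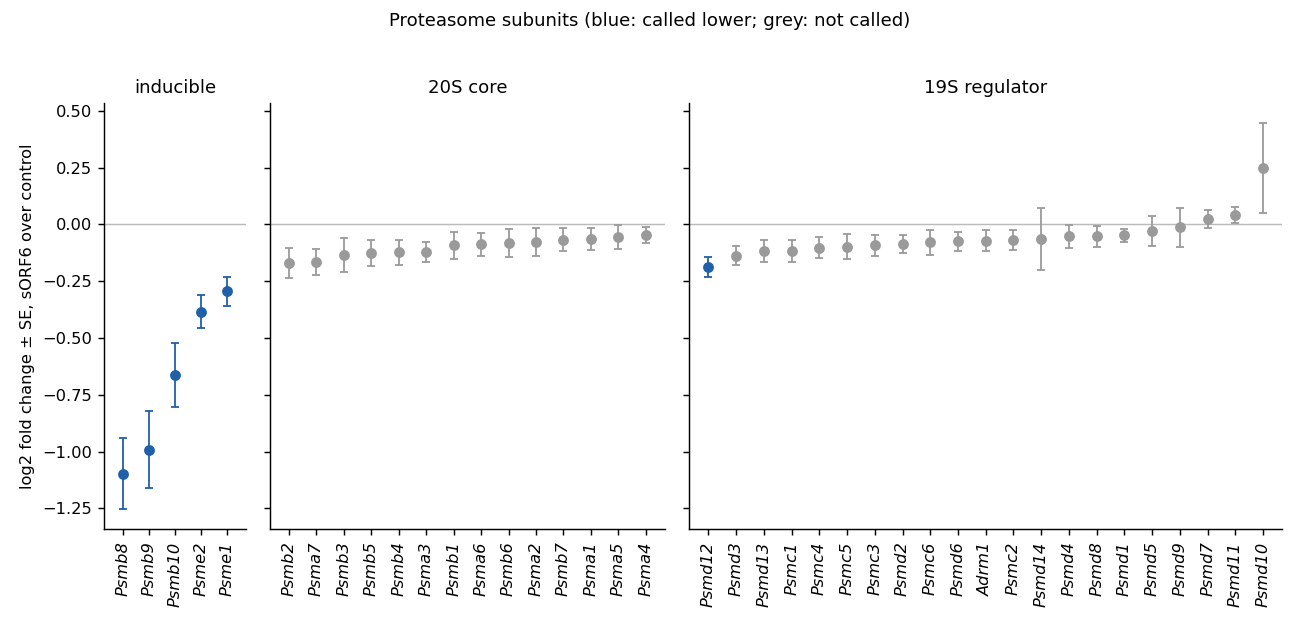
Log2 fold change of sORF6 over control virus (vertical axis) for each tested subunit of the inducible proteasome set, the 20S core and the 19S regulator (horizontal axis); points are fitted values, bars are ± 1 SE, and blue marks genes called lower. All 5 inducible subunits are called, none of the 14 core subunits is, and 1 of the 21 regulator subunits, Psmd12, is.

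Complement genes of the classical pathway and its inhibitor were lower with sORF6, and no complement gene rose. Of 15 tested complement components 3 fell (median log2 fold change -0.18, and -0.1037 without control replicate 1), and of 11 regulators and receptors 2 fell (median -0.10). C3, the component on which all activation pathways converge (gene 24232, chromosome 9, 9721137 to 9747084, plus strand, Rnor_6.0), had 23.4, 19.6 and 18.3 CPM in the controls and 8.84, 8.82 and 8.48 with sORF6. The sORF6 libraries were close together and no control came near them, a 2.35-fold lower level (-1.23 ± 0.11, edgeR adjusted p = 5.37e-07). C1s, a serine protease that starts the classical pathway, had 102, 97.8 and 92.2 CPM against 62.9, 66.05 and 58.0 (-0.65 ± 0.07, edgeR adjusted p = 8.73e-06). C1r, the protease that activates it, had 231, 223 and 214 CPM against 170, 171 and 170 (-0.39 ± 0.04, edgeR adjusted p = 6.66e-06). The intervals of C1r and C1s overlap on chromosome 4 in the table, so some of their reads could be shared and the split between them is uncertain. Serping1, the C1 inhibitor, which blocks both proteases, fell from 91.2, 95.5 and 81.6 to 60.1, 59.2 and 56.6 CPM (-0.61 ± 0.08, edgeR adjusted p = 5.44e-05). These 4 calls held in each of the 6 fits that left out 1 library.

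Clu, the gene of clusterin, a secreted chaperone that restrains the terminal complex, was lower by a smaller step, with 1395, 1512 and 1351 CPM against 1234, 1292 and 1254 (-0.17 ± 0.04, edgeR adjusted p = 0.0130). That call was lost without control replicate 2 (0.0528), sORF6 replicate 1 (0.0815) or sORF6 replicate 3 (0.0612). Cfb, complement factor B, had 4.66, 4.63 and 3.08 CPM against 2.73, 1.75 and 2.25 and did not pass (edgeR adjusted p = 0.0822). C2 and C4b, which act next in the classical pathway, had log2 fold changes of -0.18 and -0.29 and did not pass. C7, a part of the membrane attack complex, had 58.3, 52.4 and 55.9 CPM against 66.0, 60.5 and 61.5 (0.17 ± 0.06, edgeR adjusted p = 0.164). C1qa, a chain of the C1q recognition protein, had the largest value upward, at a very low level: 0.345, 0.0579 and 0.399 CPM against 0.582, 1.11 and 0.866 (1.64 ± 0.60, edgeR adjusted p = 0.164). Its groups did not overlap, nor did those of Colec11, a collectin (0.48, edgeR adjusted p = 0.615). The other C1q chains were scarce too: C1qb and C1qc reached at most 4 and 14 counts in any of the 6 libraries and were not tested.

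**Figure D2:**
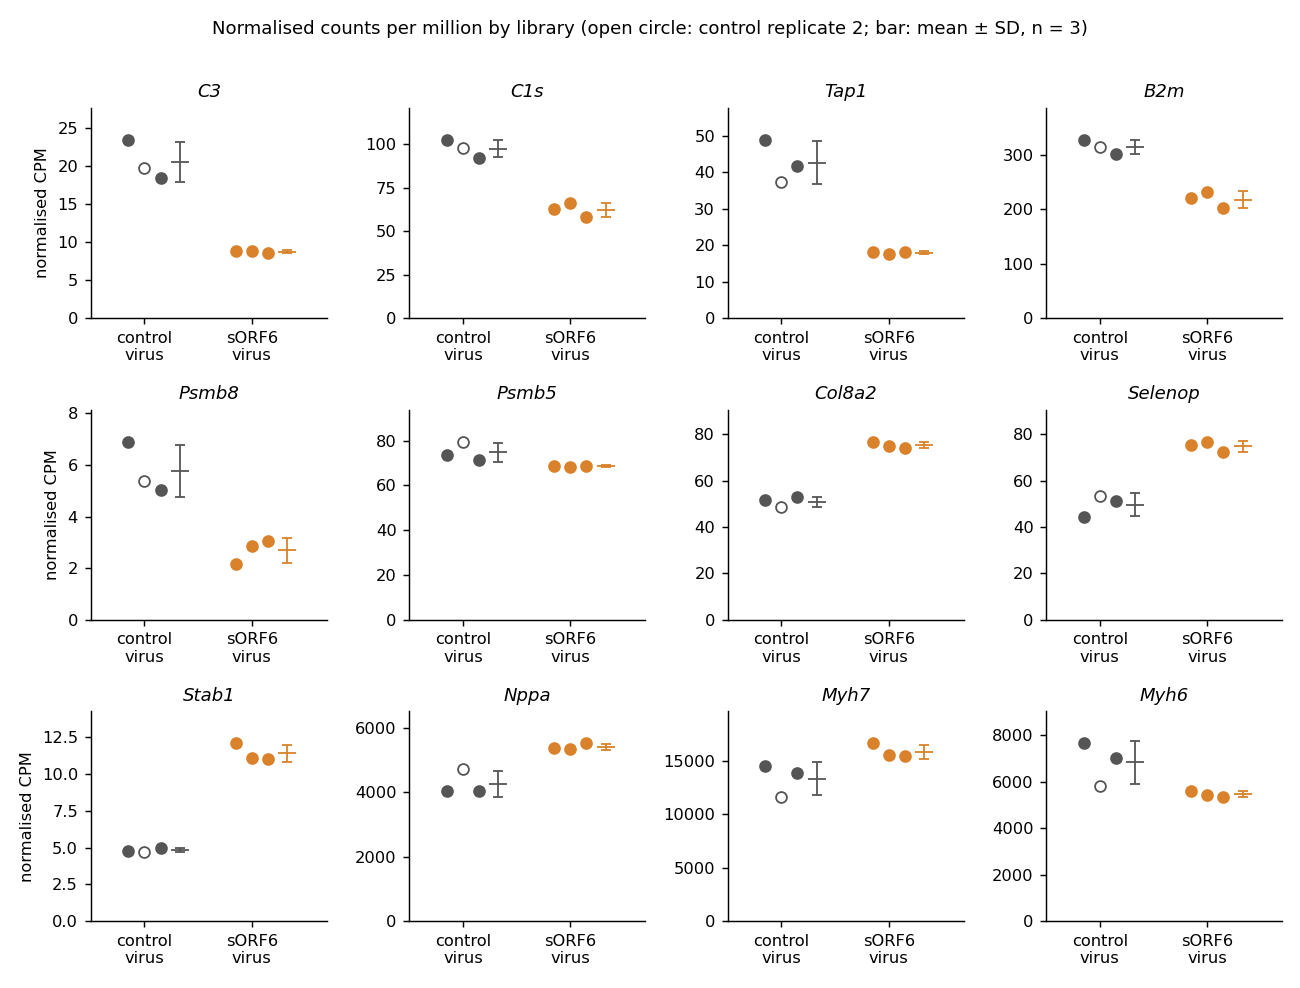
Normalised CPM (vertical axes, from 0) in each of the 3 control virus and 3 sORF6 virus libraries (points) for 12 genes, with mean ± SD beside them; the open circle is control replicate 2. C3, C1s, Tap1, B2m and Psmb8 are lower in every sORF6 library than in any control, Col8a2, Selenop, Stab1 and Nppa are higher in every one, while Myh7 is higher and Myh6 lower in every one by mean differences smaller than the range of the controls; Psmb5 is lower in every one but was not called.

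Secreted mediators of inflammation were lower as well, beyond the chemokines. Of 39 tested acute phase and inflammatory genes 14 fell and 0 rose (median log2 fold change -0.44). Lcn2, lipocalin 2, which binds bacterial iron carriers, had 295, 336 and 264 CPM in the controls and 102, 135 and 105 with sORF6, which was a 2.61-fold lower level with no overlap. Nos2, the inducible nitric oxide synthase, had 14.5, 8.52 and 10.1 CPM against 1.57, 1.34 and 0.577 (-3.24 ± 0.32, edgeR adjusted p = 1.62e-06). Il1b, the cytokine interleukin-1 beta, stood at 3.16, 2.67 and 2.62 CPM against 0.756, 0.409 and 0.750, a low level at which the fitted value is imprecise (-2.13 ± 0.22). Pla2g2a, a secreted phospholipase of the acute phase, was among the largest falls outside the interferon and chemokine lists, from 48.1, 57.0 and 38.3 to 14.4, 18.2 and 13.5 CPM (-1.64 ± 0.12, edgeR adjusted p = 6.81e-08). Others were Tmprss2, a membrane protease (-3.38), Irgm2, an interferon-inducible GTPase that the lists did not hold (108, 72.0 and 92.5 CPM against 18.9, 21.3 and 20.0), and Slc13a3, a dicarboxylate transporter (-1.34). Of the 14 falls, 8 held in each fit that left out 1 library.

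Genes of NF-kB signalling, which drives many of these mediators, fell in 8 of 27 tested members with 0 higher (median -0.22). The falls included Tnfaip3 (-0.68), Nfkbiz (-0.64) and Nfkbia (-0.54), which restrain or tune the pathway and are its targets, while the subunit genes Rela (-0.01) and Nfkb1 (-0.08) did not pass. Chemokines fell in 12 of 26 and interferon effectors in 58 of 67, with medians of -0.52 and -1.83, and of 31 interferon ligands, receptors and factors 8 fell. Leukocyte adhesion molecules on the cell surface were lower in 4 of 16 tested: Selp (-0.95), Vcam1 (-0.42), Icam1 (-0.32) and Cd44 (-0.25). The 1 that rose, Jam2, a junction protein (0.29, edgeR adjusted p = 0.0243), was not called without control replicate 1 (0.128), control replicate 2 (0.0583), sORF6 replicate 2 (0.0585) or sORF6 replicate 3 (0.129). Of 20 genes of lytic cell death 2 fell, Mlkl (-0.57) and Gsdmd (-0.22), and the latter call was lost in all 6 fits that left out 1 library.

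Macrophages are a cell type of heart isolates that could carry part of these transcripts. Their 17 tested markers summed to 179.6 to 206.4 CPM in the controls and 172.3 to 187 with sORF6, ranges that overlap, with 1 marker higher and 2 lower. Adgre1, the F4/80 antigen, had 75.3, 80.4 and 68.4 CPM against 51.5, 49.99 and 44.9 (-0.61 ± 0.10, edgeR adjusted p = 5.10e-04). Itgam, the integrin chain CD11b, fell from 7.19, 6.78 and 7.97 to 4.13, 3.62 and 4.56 CPM, and its partner chain Itgb2, the 1 called of 19 tested integrin genes, fell from 20.5, 19.4 and 20.0 to 12.5, 10.5 and 11.7 CPM (-0.79 ± 0.10, edgeR adjusted p = 3.17e-05). Csf1r, the receptor that macrophages need to survive, had 12.2, 12.7 and 11.3 CPM against 16.2, 13.7 and 14.4 and was not called (0.29, edgeR adjusted p = 0.290). Stab1, a scavenger receptor of resident macrophages and sinus endothelium, went the other way. It had 4.77, 4.69 and 4.96 CPM in the controls and 12.04, 11.04 and 11.02 with sORF6 (gene 100363145, chromosome 16, 7220434 to 7250934, minus strand, Rnor_6.0, log2 fold change 1.24 ± 0.14, edgeR adjusted p = 6.36e-06). That was the largest called rise once unnamed loci and genes under a mean log2 CPM of 1 over the 18 libraries were set aside. The markers Cd163, F13a1 and Cx3cr1 reached at most 5, 9 and 2 counts in any of the 6 libraries and were not tested, and the lymphocyte marker Ms4a1 was at 0 in all 6. The macrophage markers did not move in 1 direction, and their part in the inflammatory falls was not tested. In bulk RNA of this kind, fewer cells of a type and less RNA per cell cannot be told apart.

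**Figure D3:**
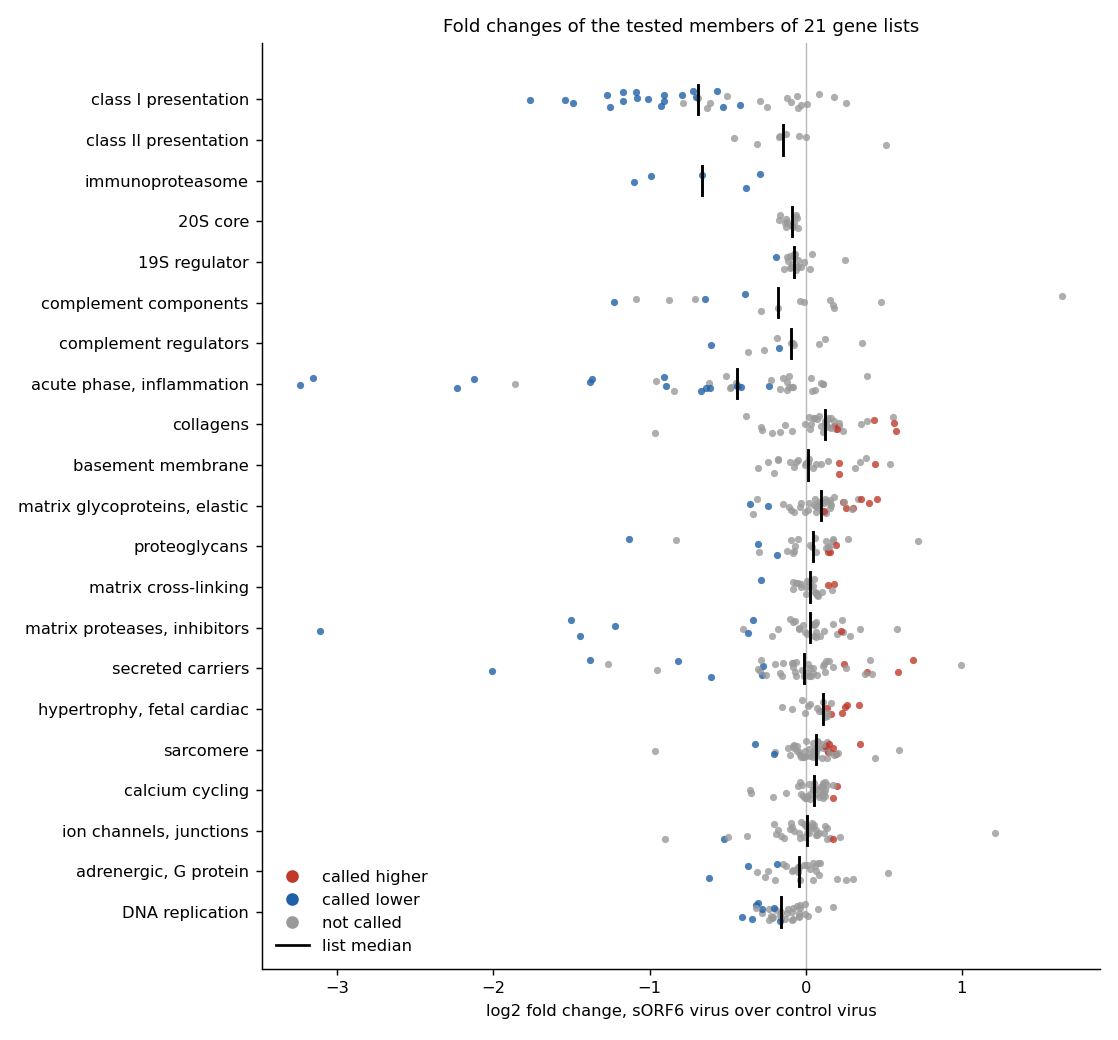
Log2 fold change of sORF6 over control virus (horizontal axis) for the tested members of 21 gene lists (rows), with 1 point per gene, red for called higher, blue for called lower, grey for not called, and a black bar at the list median. Class I, immunoproteasome and acute phase members lie mostly to the left of 0, collagen, matrix glycoprotein and hypertrophy members lie slightly to the right, and the 20S core lies just below 0 without a call.

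The matrix genes that rose did so in small steps, and most were structural proteins. Over the 208 tested genes of the matrix lists, 21 were higher and 13 lower, against 0.975% and 2.88% of all genes tested. Of 39 collagen genes 5 rose and 0 fell, and 30 of the 39 values lay above 0, with a median of 0.12. That median was 0.06739 without sORF6 replicate 1 and 0.0735 without control replicate 2. Col8a2, a chain of a short network-forming collagen (gene 313592, chromosome 5, 144308527 to 144335142, plus strand, Rnor_6.0), had 51.4, 48.6 and 52.9 CPM in the controls and 76.7, 74.8 and 74.2 with sORF6. Every sORF6 library lay well above every control (0.56 ± 0.05, edgeR adjusted p = 1.52e-06). Col5a3, a chain of a collagen that nucleates fibrils, had 95.4, 86.6 and 91.7 CPM against 132, 116 and 122 (0.43 ± 0.06, edgeR adjusted p = 1.73e-04). Col4a5, of basement membrane collagen, rose from 170, 159 and 174 to 198, 190 and 190 CPM (0.20 ± 0.04, edgeR adjusted p = 0.00260). These 3 calls held in each fit that left out 1 library, but Col4a5 was not called when only the 6 libraries of the experiment were fitted (0.0746).

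The other 2 collagen calls were less firm. Col3a1, a major fibrillar collagen, had 1142, 1100 and 1164 CPM against 1345, 1246 and 1263 (0.18 ± 0.04, edgeR adjusted p = 0.0247), but 0.0645 and 0.0855 without control replicate 1 or 2 and 0.165 and 0.0563 without sORF6 replicate 1 or 3. Col6a6, with 12.2, 10.4 and 10.9 CPM against 18.5, 17.9 and 13.6, was lost without control replicate 2 (0.102) or 3 (0.0843) and without sORF6 replicate 1 (0.158) or 2 (0.118). Col1a1, a chain of the main fibrillar collagen, had 5244, 4930 and 5609 CPM against 5939, 5674 and 5796 and did not pass (0.14 ± 0.04, edgeR adjusted p = 0.0875), although the groups did not overlap. Over all genes tested, 20.6% had no overlap between the groups, 3061 in number.

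Of 25 basement membrane genes 3 rose and 0 fell, with a median of 0.02, and without control replicate 2 there were 3 rises and 4 falls with a median of -0.0418. Nid1, which links laminin to collagen, had 534, 509 and 557 CPM against 638, 620 and 598 (0.21 ± 0.04, edgeR adjusted p = 0.00496). Lamb3, a laminin chain, and Frem1, a basement membrane adaptor, rose by 0.21 and 0.44. Of 42 matrix glycoproteins and elastic fibre genes 7 rose and 2 fell (median 0.10). Mfap4, an elastic fibre protein, had 64.9, 72.1 and 67.9 CPM against 91.6, 81.4 and 88.8 (0.35 ± 0.05, edgeR adjusted p = 1.77e-04), and Mfap2, a microfibril protein, rose by 0.45 and Efemp1, a fibulin, by 0.30. Eln, the gene of elastin itself, had 342, 338 and 350 CPM against 406, 409 and 416, tight groups with no overlap (0.26 ± 0.06, edgeR adjusted p = 0.0169). Fbln5, a fibulin that guides elastin assembly (0.24), Sparc, a collagen-binding protein (0.12, at 3358 to 3451 CPM in the controls and 3653 to 3731 with sORF6), and Svep1, a large adhesion protein (0.41), completed the rises. The calls of these last 3 and of Eln were lost in 1 to 4 of the 6 fits that left out 1 library, with the highest edgeR adjusted p of 0.0574 for Fbln5, 0.0712 for Sparc and 0.157 for Svep1, each without sORF6 replicate 1, and of 0.0741 for Eln without sORF6 replicate 3. Svep1 gave 0.110 without control replicate 2.

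A few matrix genes fell. Mgp, an inhibitor of calcification bound to the matrix, had 317, 368 and 311 CPM in the controls and 254, 276 and 248 with sORF6 (-0.36 ± 0.07, edgeR adjusted p = 0.00272). Tnc, tenascin C, a matrix protein of injured tissue, had 224, 190 and 232 CPM against 190, 179 and 175 (-0.24 ± 0.05, edgeR adjusted p = 0.0129). That call was lost without control replicate 1 (0.07) or 3 (0.0777) and without sORF6 replicate 2 (0.0559) or 3 (0.0813), and was 2.21e-05 without control replicate 2. Fn1, fibronectin, had 3658, 2621 and 3568 CPM in the controls, which shows control replicate 2 apart, and 3279, 3155 and 3164 with sORF6 (-0.04, edgeR adjusted p = 0.890). Proteoglycans split evenly over 26 tested, with Sdc2, Bgn and Gpc3 higher by 0.14 to 0.20 and Srgn (-1.13), Sdc1 (-0.31) and Dcn (-0.19) lower. Of these, only the fall of Sdc1 held in each of the 6 fits that left out 1 library. Among 23 crosslinking and processing genes Plod2 (0.14) and Adamts2 (0.18) rose, each lost in most of those fits, and P4ha2, a subunit of collagen prolyl hydroxylase, fell from 64.4, 61.4 and 62.1 to 52.9, 51.2 and 50.04 CPM (-0.29 ± 0.04, edgeR adjusted p = 1.88e-04).

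The matrix-degrading enzymes that moved were those of inflamed tissue, and they fell. Of 34 tested proteases and inhibitors 6 fell and 1 rose. Mmp9, the gelatinase of leukocytes and activated fibroblasts, had 10.2, 10.4 and 10.4 CPM in the controls and 3.78, 3.91 and 3.64 with sORF6, values tight in both groups (-1.45 ± 0.17, edgeR adjusted p = 1.20e-05). The macrophage elastase gene Mmp12 (-1.50), the collagenase gene Mmp13 (-3.11) and the stromelysin gene Mmp3 (-1.23) were lower at under 6 CPM in every library. The 1 rise was that of Timp3, an inhibitor of metalloproteinases that binds the matrix, from 161, 153 and 160 to 181, 186 and 186 CPM (0.22 ± 0.04, edgeR adjusted p = 0.00275).

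The 14 tested fibroblast markers summed to 7927 to 8747 CPM in the controls and 8921 to 9441 with sORF6, ranges that do not overlap, and most of that sum is Col1a1, Col1a2 and Col3a1, which the collagen list holds too. Ddr2, a collagen receptor, and Col3a1 were called higher and Dcn lower, but 0 of the 14 were called without control replicate 2. Ddr2 then had an edgeR adjusted p of 0.0855 and Dcn of 0.0972. Ddr2 was also lost without sORF6 replicate 1 (0.104), and Dcn was lost in 4 of the 6 fits, with up to 0.103 without sORF6 replicate 3. Pdgfra (0.09), Tcf21 (-0.11) and Postn (0.06), which mark the lineage without being collagens, did not pass. Endothelial markers summed to 363 to 390.9 CPM against 395.8 to 413 with 0 of 11 called, and smooth muscle markers to 3605 to 3657 against 3448 to 3573 with Notch3 higher and Acta2 lower. Notch3 was lost in 3 of the 6 fits (up to 0.122 without sORF6 replicate 1, and 0.0947 without control replicate 2) and Acta2 in 5 (up to 0.280 without sORF6 replicate 1, and 0.136 without control replicate 2). The part of fibroblast number in the matrix rises was not tested. Collagen and basement membrane transcripts were long, with median effective lengths of 5867 and 6967 bases against 2455 over all genes. Without control replicate 2 the collagen list had 3 rises, and 6 matrix glycoproteins were higher and 2 lower.

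Among other secreted proteins, 4 of 47 carriers and plasma proteins rose and 6 fell (median -0.01). Selenop, the selenium carrier selenoprotein P (gene 29360, chromosome 2, 53105912 to 53116198, plus strand, Rnor_6.0), had 44.2, 53.4 and 51.4 CPM in the controls and 75.6, 76.8 and 72.2 with sORF6 (0.59 ± 0.07, edgeR adjusted p = 3.13e-05). Apoe, the lipid carrier apolipoprotein E, had 86.3, 89.4 and 79.2 CPM against 118, 111 and 106 (0.39 ± 0.05, edgeR adjusted p = 5.44e-05). Gsn, gelsolin, an actin-severing protein with a secreted form, had 220, 216 and 210 CPM against 252, 253 and 258 (0.24 ± 0.04, edgeR adjusted p = 3.70e-04). The groups of all 3 were apart. Fam180a, a predicted secreted protein, rose from 10.1, 8.75 and 11.3 to 16.1, 16.0 and 16.3 CPM (0.68 ± 0.10, edgeR adjusted p = 3.24e-04). The falls beside Lcn2 and Serping1 were Apol9a (-2.01), Angptl4, an inhibitor of lipoprotein lipase (11.04, 11.8 and 12.5 CPM against 7.27, 6.19 and 6.58), Htra1 (-0.27) and C1qtnf1 (-0.28), the last lost in all 6 fits that left out 1 library.

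Growth factors and their antagonists showed few calls, where over all genes tested 0.975% were higher and 2.88% lower. Of 42 growth factor genes 3 rose and 0 fell. Dlk1, a Notch ligand relative of immature mesenchyme, had 13.8, 13.1 and 12.7 CPM in the controls and 18.9, 20.6 and 22.5 with sORF6 (0.65 ± 0.10, edgeR adjusted p = 6.16e-04). Hbegf, a ligand of the EGF receptor, rose by 0.24 on the log2 scale and Ptn, pleiotrophin, by 0.40, the latter call lost without sORF6 replicate 1 (0.119), control replicate 1 (0.0550) or control replicate 3 (0.0720). Of 42 ligands and antagonists of the TGF-beta, BMP and Wnt pathways, Tgfb3 rose from 215, 215 and 218 to 256, 246 and 242 CPM (0.20 ± 0.03, edgeR adjusted p = 0.00118). The secreted Wnt binders Sfrp2 and Sfrp1 fell, Sfrp2 from 18.1, 20.1 and 20.2 to 10.0, 12.6 and 9.98 CPM (-0.84 ± 0.09, edgeR adjusted p = 2.41e-06) and Sfrp1 by 0.15. Sfrp1 was lost without sORF6 replicate 3 (0.0506). Of 13 genes of the IGF axis, whose median was 0.18, Igf1r (0.23) and Stc1 (0.22) rose and Igfbp3, a carrier of IGF in the extracellular space, fell by 0.39. The rises of Igf1r and Stc1 were lost in 3 and 5 of the 6 fits that left out 1 library, with a highest edgeR adjusted p of 0.0940 without control replicate 2 and 0.129 without control replicate 1.

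**Figure D4:**
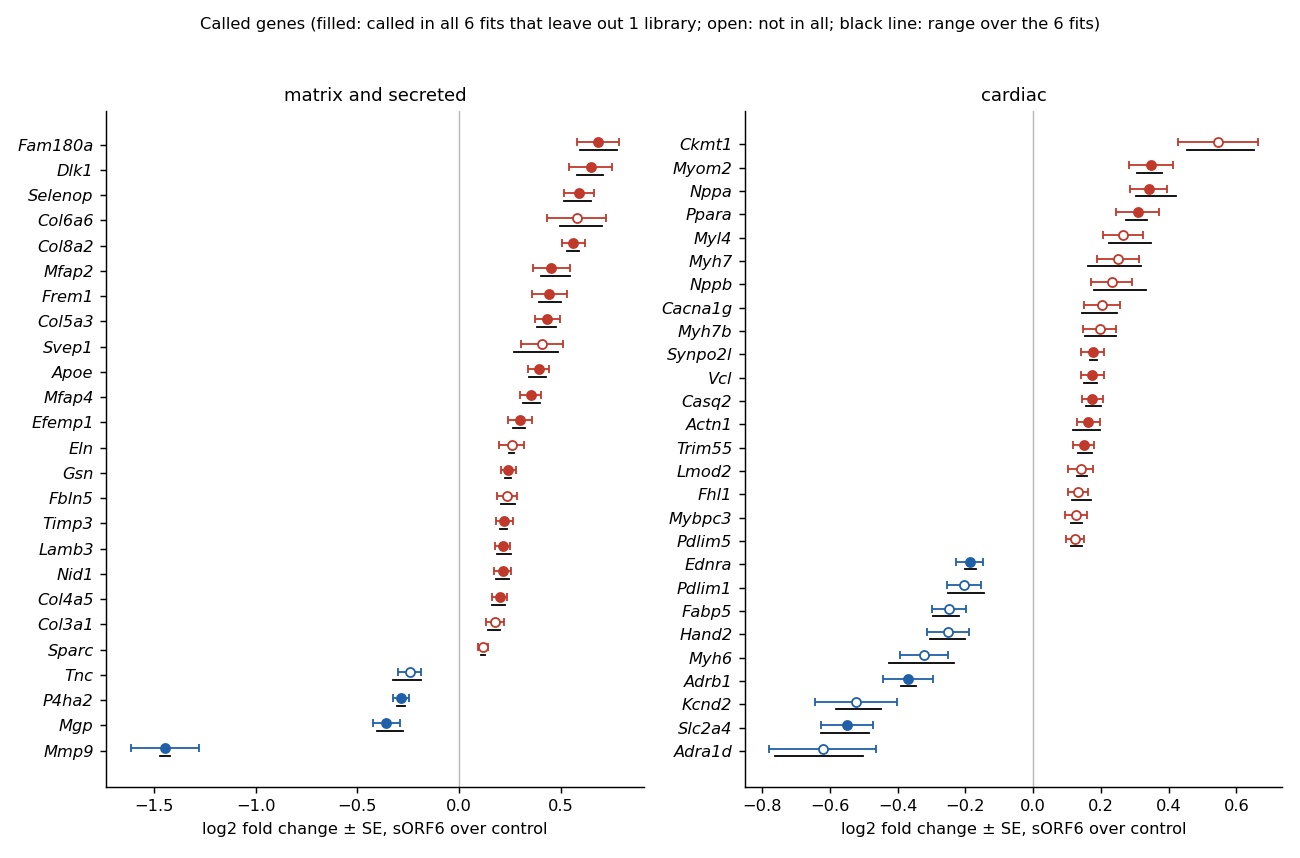
Log2 fold change of sORF6 over control virus (horizontal axes, points with bars of ± 1 SE) for 25 called matrix and secreted genes (left) and 27 called cardiac genes (right), red for higher and blue for lower; a filled point was called in all 6 fits that left out 1 library, and the black line below it is the range over these fits. Fam180a at 0.68 is the largest rise shown, Mmp9 at -1.45 is the largest change shown, and Nppa, Myom2 and Casq2 are filled while Nppb, Myh7 and Myh6 are open.

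Cardiac genes changed weakly. Over the 247 tested genes of the cardiac lists 18 were higher and 9 lower. Over all genes tested 0.975% were higher and 2.88% lower, so the share of cardiac falls was near that of all genes. The medians of the 7 cardiac lists lay between -0.04 and 0.11. The list of hypertrophy and fetal genes had 6 rises and 0 falls among 21 tested, with a median of 0.11, and 0.06787 without control replicate 3. Nppa, which encodes atrial natriuretic peptide (gene 24602, chromosome 5, 164808407 to 164809716, plus strand, Rnor_6.0), had 4031, 4720 and 4043 CPM in the controls and 5366, 5331 and 5517 with sORF6. The groups were apart, with control replicate 2 nearest to the sORF6 libraries (0.34 ± 0.05, edgeR adjusted p = 5.47e-04). Nppb, the B-type peptide, had 1019, 1238 and 1009 CPM against 1262, 1270 and 1304 (0.23 ± 0.06, edgeR adjusted p = 0.0390), and control replicate 2 lay just below the lowest sORF6 library. Its call held in 1 of the 6 fits that left out 1 library, the one without control replicate 2 (9.53e-05), and was lost in the other 5, with an edgeR adjusted p of 0.0922 to 0.182. Myl4, the atrial light chain, had 185, 217 and 183 CPM against 223, 236 and 245 (0.27 ± 0.06, edgeR adjusted p = 0.0118, and 0.0674 to 0.0786 without control replicate 1 or 3 or sORF6 replicate 3). Actn1, a non-muscle actinin, and Fhl1, a sarcomeric LIM protein, rose by 0.16 and 0.13, and the call of Fhl1 was lost in 4 of those fits. Acta1, skeletal actin, and Ankrd1, a stress-responsive titin partner, each had a log2 fold change of 0.11 and did not pass (edgeR adjusted p = 0.346 and 0.190).

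The myosin heavy chains moved against each other. Myh7, the slow beta chain of the fetal rodent ventricle, had 14570, 11650 and 13850 CPM in the controls and 16640, 15530 and 15490 with sORF6 (0.25 ± 0.06, edgeR adjusted p = 0.0217). Myh6, the adult alpha chain, had 7649, 5826 and 7029 CPM against 5597, 5443 and 5354 (-0.32 ± 0.07, edgeR adjusted p = 0.0117). Control replicate 2 was the lowest control for both genes, and its removal moved them in opposite ways: Myh7 was no longer called (0.16, edgeR adjusted p = 0.0632), while Myh6 stayed lower (-0.43, 4.89e-05). Myh7 was also lost without sORF6 replicate 1 (0.128), and Myh6 without control replicate 1 (0.0821) or sORF6 replicate 3 (0.0621). Their ratio was steadier than either level. Myh7 made up 65.8%, 66.8% and 66.5% of the summed FPKM of both genes in the controls and 75.0%, 74.2% and 74.5% with sORF6, means of 66.4% ± 0.542 and 74.6% ± 0.398 (SD, n = 3 each). The groups were apart by several SD, and control replicate 2 did not stand out in this share. The transcripts of these paralogs are similar and their intervals overlap on chromosome 15, so the split of reads between them is uncertain.

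In the other cardiac lists the calls were few beside the number tested. Of 53 sarcomere genes 7 rose and 2 fell (median 0.06, and 0.03899 and 0.04147 without control replicate 3 or 1). Myom2, an M-band protein, had 490, 471 and 450 CPM against 634, 585 and 578 (0.35 ± 0.06, edgeR adjusted p = 0.00257). Synpo2l and Trim55, proteins of the Z-disc and of the sarcomere's turnover, rose by 0.18 and 0.15, and these 3 calls held in each of the 6 fits. The other 4 rises, Myh7b, Mybpc3, Lmod2 and Pdlim5, were between 0.12 and 0.20 and were lost in 1 to 5 of them. Without control replicate 2 the edgeR adjusted p was 0.102 for Myh7b and 0.0649 for Mybpc3. Beside Myh6 the fall was in Pdlim1, a LIM protein of the Z-disc (-0.20), a call lost without control replicate 2 (0.121) or sORF6 replicate 1 (0.152) or 3 (0.120). Of the thin filament genes, Lmod2 is among these rises, while others did not pass: Actc1, cardiac actin, had 22790, 24960 and 20200 CPM against 22740, 22990 and 22430, Tnni3 a log2 fold change of 0.00 and Tnnt2 one of 0.07. Of 35 calcium cycling genes, Casq2, the calcium store protein of the sarcoplasmic reticulum, rose from 1231, 1305 and 1247 to 1406, 1426 and 1437 CPM (0.17 ± 0.03, edgeR adjusted p = 0.00170). Cacna1g, a T-type calcium channel, rose by 0.20 in a call lost in 5 of the 6 fits, with an edgeR adjusted p of up to 0.184 without sORF6 replicate 1. The calcium pump gene Atp2a2, its inhibitor Pln and the release channel Ryr2 did not pass (edgeR adjusted p = 0.991, 0.206 and 0.452).

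Of 30 tested genes of adrenergic and other G protein signalling 3 fell, and the cells of both groups had received the adrenergic agonist. Adrb1, the beta-1 receptor, had 15.5, 15.1 and 16.0 CPM in the controls and 12.2, 11.7 and 12.1 with sORF6 (-0.37 ± 0.07, edgeR adjusted p = 0.00544). Ednra, the endothelin A receptor, fell by 0.19, and Adra1d, an alpha-1 receptor, by more (-0.62) in a call lost without control replicate 2 (0.135), sORF6 replicate 1 (0.172) or sORF6 replicate 2 (0.101). Among 35 genes of fuel use, Slc2a4, the insulin-responsive glucose transporter, had 44.0, 53.9 and 50.9 CPM against 33.3, 33.9 and 34.6 (-0.55 ± 0.08, edgeR adjusted p = 1.34e-04), Fabp5, a fatty acid binding protein, fell by 0.25, and Ckmt1, mitochondrial creatine kinase, rose by 0.55. Of 39 ion channel and junction genes, Vcl, vinculin, rose by 0.18 and Kcnd2, a potassium channel, fell by 0.52. Of 38 cardiac transcription factors, Ppara, a regulator of fatty acid oxidation, rose by 0.31 and Hand2 fell by 0.25. A single fall among 39 or 38 genes is near the share of 2.88% lower over all genes tested. The calls of Fabp5, Ckmt1, Kcnd2 and Hand2 were lost in 1 to 4 of the 6 fits, with a highest edgeR adjusted p of 0.0521 for Fabp5 and 0.159 for Hand2, and Hand2 gave 0.0851 without control replicate 2. Cxadr, the receptor through which adenovirus enters, had 296, 301 and 317 CPM against 296, 308 and 314 (0.01, edgeR adjusted p = 0.966).

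Outside these groups, cell cycle genes gave some of the smaller falls. Cdkn1a, which encodes the cell cycle inhibitor p21, had 238, 238 and 236 CPM in the controls and 190, 193 and 194 with sORF6 (-0.30 ± 0.03, edgeR adjusted p = 8.15e-06), 1 of 2 falls among 24 p53 targets. DNA replication genes fell in 7 of 37 members with a median of -0.16, and the value was below 0 in 34 of the 37. Mcm6, a subunit of the replicative helicase, had 120, 114 and 116 CPM against 90.9, 90.2 and 94.5 (-0.35 ± 0.04, edgeR adjusted p = 2.01e-05). Of 25 mitosis genes 0 passed. Cyp1a1, the classical target of the aryl hydrocarbon receptor, had 1.38, 1.33 and 1.65 CPM against 4.30, 2.98 and 3.52 (1.30 ± 0.29, edgeR adjusted p = 0.0129), and was lost without control replicate 1 (0.0571), control replicate 2 (0.0505) or sORF6 replicate 1 (0.0822). It was the 1 call among 11 genes of that pathway.

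Whether these changes were particular to sORF6 was tested as the difference between its effect and that of the other viruses, each against its own control libraries. The effect of sORF6 differed from that of sORF7 for 1661 genes (11.2% of those tested) and from that of sORF8 for 548 (3.68%). Of the 145 genes higher with sORF6, 128 differed from sORF7 and 42 from sORF8. Of the 349 falls outside the interferon and chemokine lists the counts were 323 and 194, and of the 80 inside them 79 and 78. The 349 include class I genes and some interferon-induced genes that the lists did not hold. The genes counted here were chosen by the sORF6 effect that enters each difference, so these shares are a description.

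The class I gene Tapbp fell with sORF6, rose with sORF7 and was not called with sORF8. It had log2 fold changes of -1.09, 0.81 and 0.12 in the 3 experiments, a difference of -1.90 ± 0.10 from sORF7 (edgeR adjusted p = 2.14e-09) and of -1.21 ± 0.11 from sORF8 (2.14e-06). The medians over the 35 class I genes were -0.69, 0.65 and 0.07, and over the 5 immunoproteasome genes -0.66, 0.64 and 0.07. C3 differed in the same way, with -1.23 against 0.34 and 0.31. Col8a2 rose with sORF6 (0.56) and fell with sORF7 (-0.55), with 0.01 for sORF8, and it differed from both (1.11 ± 0.08 and 0.55 ± 0.08, edgeR adjusted p = 1.84e-08 and 2.13e-04). Selenop and Stab1 likewise differed from both, Stab1 by 1.80 ± 0.21 and 1.46 ± 0.20 (edgeR adjusted p = 6.37e-06 and 1.27e-04).

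For several cardiac rises a difference from sORF7 was shown, but not one from sORF8. Nppa had log2 fold changes of 0.34 with sORF6, -0.34 with sORF7 and 0.37 with sORF8, a difference of 0.68 ± 0.08 from sORF7 (edgeR adjusted p = 6.11e-06) and of -0.03 ± 0.08 from sORF8 (0.916). Myh7 gave 0.25, -0.46 and 0.34, Myom2 0.35, -0.41 and 0.48, and Casq2 0.17, -0.16 and 0.26, each with a difference from sORF7 that passed and a difference from sORF8 that did not (edgeR adjusted p = 0.719, 0.594 and 0.393). Myh6 did not follow: it fell with sORF6 (-0.32) and rose with sORF8 (0.80), a difference of -1.12 ± 0.10 (edgeR adjusted p = 2.14e-06). The Myh7 share of the myosin FPKM accordingly went from 66.4% to 74.6% with sORF6, from 64.9% to 53.9% with sORF7 and from 74.1% to 67.5% with sORF8, and the control groups of sORF6 and sORF8 were themselves apart.

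**Figure D5:**
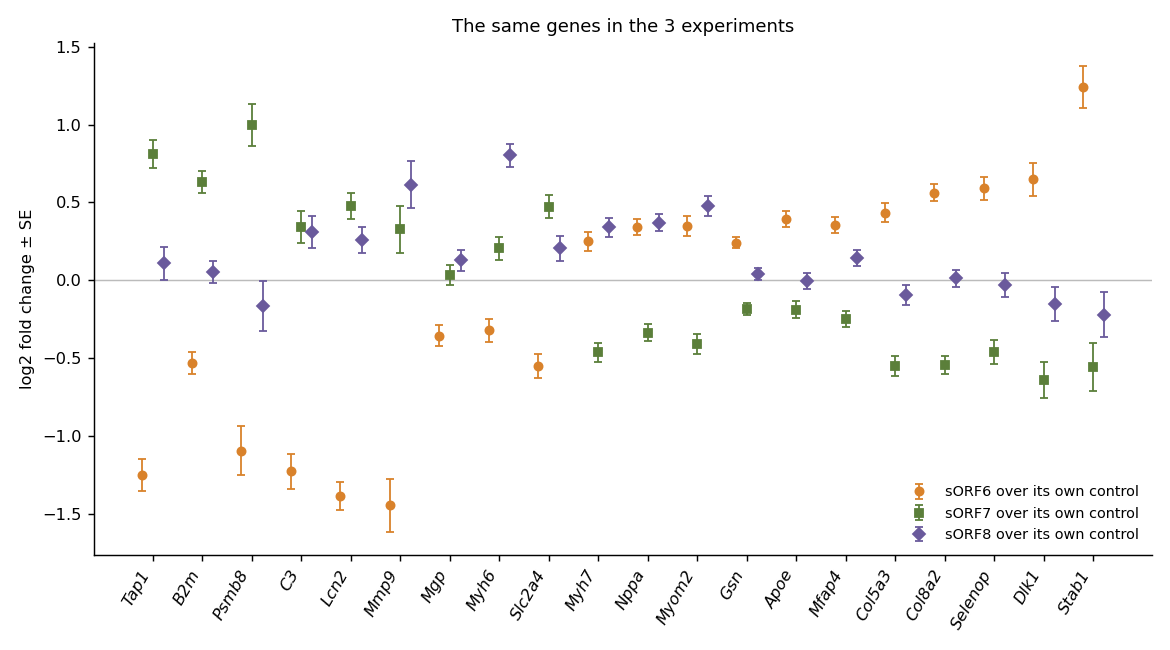
Log2 fold change over the own control virus (vertical axis, ± 1 SE) of 20 genes (horizontal axis) with sORF6 (orange circles), sORF7 (green squares) and sORF8 (purple diamonds). Tap1, B2m and Psmb8 are below 0 with sORF6 and above 0 with sORF7, Col8a2, Selenop and Stab1 the reverse, and for Nppa, Myh7 and Myom2 the sORF6 and sORF8 points lie close together.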

How the data were processed

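RNA-seq of 18 libraries was used, 6 of them from the sORF6 experiment. The authors deposited 1 table of 19880 genes with estimated counts and FPKM values per library, per the file headers. Per the submitters' processing notes, the tools include HISAT2 2.0.4, RSEM 1.2.12 and DESeq2 1.4.5 with build Rnor_6.0, in roles not given in the sources used here, and neither is the use of strand. The estimated counts the authors deposited were rounded to whole numbers. The test was edgeR 4.0.16 (R 4.3.3): filterByExpr, TMM scaling, 1 mean per group over all 18 libraries (12 residual degrees of freedom, common biological coefficient of variation 6.90%), Benjamini-Hochberg adjustment over 14872 genes, two-sided, called under 0.05. Normalised CPM use the TMM-adjusted library size. Alternatives included limma 3.58.1 on log2(FPKM + 1), with the FPKM as deposited, and DESeq2 1.42.0.

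The comparison and the gene lists were chosen with earlier results of these data known. Named genes were the 20 largest rises and falls without overlap whose mean log2 CPM reached 1, called list members, the highest members not called, and a fixed set of cardiac, matrix and class I genes; further marker genes were named after their values were seen. Lists were described by counts and medians and not tested. Marker lists of epicardium (10 tested), Schwann cells (5), erythroid cells (5) and lymphocytes (2) had 0 calls. The edgeR fit was tested on simulated counts. The 17436673 to 17658168 counts per library of the sORF6 experiment limit what can be said of genes under 1 CPM.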

Additional observations from a re-analysis of the deposited data

Results flagged for a closer look

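Among genes called with sORF6 against its control, the effect differed between experiments by a test of the difference itself (edgeR's quasi-likelihood test, Benjamini-Hochberg adjusted over all genes), and those with the smallest p in each direction outside the interferon and chemokine lists are given here. Each difference is the log2 fold change with sORF6 minus that of the other virus, each over its own control with 3 libraries per group. Against sORF7 the rises stood out most for Col8a2 (1.11 ± 0.08), Sorbs2 (0.55 ± 0.04), Col5a3 (0.99 ± 0.09), Lamb3 (0.57 ± 0.05) and Tril (0.64 ± 0.06), with adjusted p from 1.84e-08 for Col8a2 to 6.03e-07 for Tril. The falls were Tapbp (-1.90 ± 0.10), RT1-CE5 (-1.36 ± 0.09), Lcn2 (-1.86 ± 0.12), Irgm2 (-2.86 ± 0.20) and RT1-T24-3 (-2.98 ± 0.21). All 10 had the opposite sign with sORF7.

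Against sORF8 the rises were Cav1 (0.40 ± 0.05), Stab1 (1.46 ± 0.20), Col8a2 (0.55 ± 0.08), Ptgr1 (0.52 ± 0.08) and Mest (0.58 ± 0.09), and the falls Lcn2 (-1.64 ± 0.12), Irgm2 (-2.44 ± 0.22), Myh6 (-1.12 ± 0.10), Chi3l1 (-1.44 ± 0.13) and Tapbp (-1.21 ± 0.11). The genes were chosen by the sORF6 effect that enters each difference.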

How the results depend on the processing

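With each library left out in turn, 70 to 129 genes were higher (145 with all) and 293 to 400 lower (429). Fitting only the 6 libraries gave 60 and 258, and limma on log2(FPKM + 1) gave 92 higher and on log2(FPKM + 0.1) 83. Leaving 1 library out moved the medians of class I (-0.69) to between -0.73 and -0.58, matrix glycoproteins (0.10) to 0.0564 and 0.13, proteases (0.03) to -0.001918 and 0.041, acute phase genes (-0.44) to -0.49 and -0.35, chemokines (-0.52) to -0.68 and -0.48, interferon ligands and factors (-0.08) to -0.11 and -0.06534, and DNA replication (-0.16) to -0.17 and -0.13. It also gave 3 to 6 collagens higher, 3 to 7 glycoproteins higher, 8 to 13 acute phase genes lower, 3 to 6 hypertrophy genes higher and 4 to 7 sarcomere genes higher. The medians of collagens (0.12) ranged from 0.06739 to 0.1711, of hypertrophy genes (0.11) from 0.06787 to 0.12 and of sarcomere genes (0.06) from 0.03899 to 0.07985. On the log2(FPKM + 1) scale the medians were -0.47 for class I, -0.09615 for complement components (-0.18), -1.37 for ISG15 and related modifiers, -0.24 for acute phase genes, -0.38 for chemokines, -1.25 for interferon effectors and -0.14 for DNA replication, and with a filter at 1 CPM the chemokine median was -1.17. Collagens higher were 9 with DESeq2, 8 with upper quartile scaling and 2 with only the 6 libraries. Those 6 libraries alone also gave 4 glycoproteins higher, 4 NF-kB genes lower, 1 hypertrophy gene higher and 2 sarcomere genes higher. Both limma fits gave 3 hypertrophy genes higher, and a correction for transcript length gave 11 sarcomere genes higher. Calls that held with each library left out but not with only the 6 libraries fitted were, among the genes named, Actn1 (0.156), Trim55 (0.115), Mmp3 (0.0934), Col4a5 (0.0746), Ednra (0.0545), Vcl (0.0532) and Lamb3 (0.0531), as edgeR adjusted p. Sorbs2 was another, and its call was also lost with the correction for transcript length (edgeR adjusted p of up to 0.131 over these 2 fits). The cause of these moves was not tested. No call of a named gene changed sign, but medians near 0 did. Without control replicate 2 they included proteases (above), secreted carriers (-0.01107, then 0.01181) and basement membrane genes (0.01704, then -0.0418). Proteasome assembly genes (-0.03732, then 0.01888) and TGF-beta, BMP and Wnt genes (-0.01624, then 0.01923) also changed sign there. So did ion channels and junctions (0.005803, then -0.003775) and fuel use (-0.002181, then 0.02865). Secreted carriers also changed with the 1 CPM filter (0.007256), and basement membrane genes without sORF6 replicate 1 (-0.01729). Other lists, such as integrins, growth factors, mitosis, the AhR pathway and macrophage markers, changed sign in other fits. With the replicate number as a block, 135 genes were higher and 388 lower, and 9 collagens higher. To see whether the numbers pair the libraries, each gene's departure from its group mean was correlated between libraries across 10117 genes. These departures, as distinct from the levels, correlated at 0.251, 0.182 and 0.0279 between same-numbered libraries. Not every pair was over 0.1, so the numbers were not taken to pair the libraries. Replicates 1 and 2 still correlated best with their own number, while sORF6 replicate 3 correlated best with control replicate 2 (0.0887). Falls such as Mmp13 and Il1b rest on few counts, which limits their precision.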
